A study of Mus musculus with 32 samples.

Results

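The 30 genes described here make sterols and fatty acids or control that synthesis, and they were followed in donor T cells of mice with graft-versus-host disease (GVHD), in which transplanted T cells attack the tissues of the recipient. They were taken by gene symbol from a table of 16741 genes, and all 30 were found there. They fall into 4 roles: 8 genes lead from acetyl units to squalene, 10 from squalene to cholesterol, 4 belong to control by the sterol regulatory element-binding proteins (SREBP) and to sterol transport, and 8 make, elongate or desaturate fatty acids. Bulk RNA was sequenced from sorted T cells of spleen and lymph nodes, namely conventional CD4 cells, conventional CD8 cells and regulatory cells (Treg). The donors were C57Bl6 mice and the GVHD recipients Balb/c mice, which differ from the donors at the major histocompatibility genes.

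Of CD4 cells, and likewise of CD8 cells, 2 libraries were from before transplantation (day 0), 3 were from syngeneic recipients that served as untreated controls, 4 from allogeneic recipients with untreated GVHD and 4 from GVHD recipients given Treg on day 0, called Treg-treated below. For Treg there were 2 libraries from day 0 and 3 of cells taken from Treg-treated recipients after transplantation. This gives 31 libraries in 10 groups. All are primary cells. The titles of the samples give day 6 for all cells recovered from recipients, and the series text 8 days. Genotype, age and sex of the mice, the strain of the syngeneic recipients and whether a library holds cells of 1 or several mice are not given in the sources used here, so a p-value below measures the spread between these libraries. Replicate names carry a prefix, JL019 or JL027, whose meaning is not given. Values of a group are listed in the order JL019 before JL027, and number 1 before 2.

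Animal cells build cholesterol from acetyl-CoA by way of mevalonate, farnesyl diphosphate, squalene and lanosterol, and they build fatty acids from the same acetyl-CoA. The genes of both routes are switched on by SREBP factors, which are made as membrane proteins of the endoplasmic reticulum. When sterol is scarce, the escort protein SCAP carries them to the Golgi, where proteases release the active part. When sterol is plentiful, INSIG proteins hold SCAP back. The factor encoded by Srebf2 acts mainly on sterol genes and that encoded by Srebf1 mainly on fatty acid genes, and SREBP often binds beside the factor NF-Y, whose site is the CCAAT box. In the opposite direction, liver X receptors sense oxysterols and switch on cholesterol export. T cells are known to raise lipid synthesis when they are activated and divide.

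Promoter sequence of 5 members is shown because the motifs of the factors named above can be seen in them. Hmgcs1 and Mvk belong to the mevalonate steps, Ebp to the steps to cholesterol, and Srebf2 and Insig1 to the control. The sequences are RefSeq's for build GRCm38.p6, written along the gene's strand from 5′ to 3′, and all lie before the annotated start of transcription. Capitals mark motifs found by an exact search of both strands: the CCAAT box, which reads CCAAT or, from the other strand, ATTGG, the sterol element TCACNCCAC and the E-box CACGTG.
Hmgcs1 (chr13:119690101-119690325, plus strand): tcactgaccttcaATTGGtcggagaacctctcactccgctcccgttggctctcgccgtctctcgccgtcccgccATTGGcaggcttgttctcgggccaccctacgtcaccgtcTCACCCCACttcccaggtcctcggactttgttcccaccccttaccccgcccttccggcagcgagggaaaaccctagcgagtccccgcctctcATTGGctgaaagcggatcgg
Mvk (chr5:114444081-114444268, plus strand): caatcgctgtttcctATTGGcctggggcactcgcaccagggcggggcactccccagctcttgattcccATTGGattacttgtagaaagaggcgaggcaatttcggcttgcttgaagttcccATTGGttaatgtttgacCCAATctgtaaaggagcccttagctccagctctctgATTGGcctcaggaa
Ebp (chrX:8193548-8193697, minus strand): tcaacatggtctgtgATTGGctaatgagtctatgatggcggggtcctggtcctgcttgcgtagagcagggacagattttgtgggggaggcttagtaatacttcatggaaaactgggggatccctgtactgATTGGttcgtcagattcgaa
Srebf2 (chr15:82147119-82147153, plus strand): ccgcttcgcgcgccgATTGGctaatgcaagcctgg
Insig1 (chr5:28071181-28071331, plus strand): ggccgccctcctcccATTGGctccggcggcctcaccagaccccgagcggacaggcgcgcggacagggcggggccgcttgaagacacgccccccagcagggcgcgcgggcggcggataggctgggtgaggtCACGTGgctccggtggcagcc

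RefSeq windows of 300 bases, from 250 before to 50 after a start, were found for 23 members (28 windows) and not for Fdps, Fdft1, Sqle, Stard4, Scd1, Scd2 and Fads1. The CCAAT box was in the windows of 19 of these 23 members, the others being Acat2, Acaca, Elovl6 and Fads2. It was in 41.1% of all 27025 genes with a window. The sterol element was in 1 member, Hmgcs1, and in 1.44% of all genes. The E-box was in 4 members, Insig1, Dhcr7, Hsd17b7 and Sc5d, and in 8.09% of all genes. In Fasn a CCAAT box of one strand shares letters with one of the other strand. These matches describe the letters of the windows. A match is not evidence of binding, and its part in any change below was not tested.

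The deposited values are counts normalised between libraries, of which whole reads could not be recovered, so the depth is unknown and its effect on precision cannot be given. All values below are such normalised counts, and log2 changes are differences of the group means of log2(value + 1) in a limma model of all 31 libraries. A gene was called where its Benjamini-Hochberg adjusted p over all 16741 genes was below 0.05. Where a count of members from an alternative fit stands without the share of all genes in that fit, it is not a result about the members. Levels are compared between groups for 1 gene and never between genes, since they are not scaled by length.

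The sorted cells carried the markers of their lineage, with exceptions. CD4 syngeneic replicate JL019-2 had 1659 of Cd4 and 1956 of Cd8a, against 16526 and 14576 of Cd4 and 58.2 and 114 of Cd8a in the other libraries of its group. Foxp3, the defining factor of Treg, was 198 and 442 in Treg and 1145 and 978 in CD4 cells at day 0, and after transplantation it was 285, 265 and 293 in Treg and 579, 367, 337 and 469.9 in CD4 and 334, 453, 103 and 335 in CD8 cells of allogeneic recipients. Ikzf2 was 19287 and 14182 in Treg and 1619 and 1769.9 in CD4 cells at day 0. Of the markers of other cell types, 12 of 13 myeloid, 8 of 9 B cell and all 8 erythroid genes were in the table, and only 3 of 10 adipocyte genes. Myeloid sums ran from 3256 to 4335 in the day 0 CD4 libraries to 83578 to 3688950.0 in the CD4 syngeneic ones, the highest being replicate JL019-2. B cell sums were 19991 to 31564 in day 0 CD8 and 7483 to 9393 in day 0 CD4 libraries, and 809.7 to 1073 and 284 to 392 in the allogeneic libraries. These day 0 sums were mostly Jchain, at 18246 and 29108 in CD8 and 8790 and 7059 in CD4 libraries. No marker was at 0 in every library of a group apart from Cd14 in day 0 CD4 cells. Libraries also differed in a length trend, the slope of log2 value on log2 genomic span over 15855 genes, which ran from -0.124 in CD8 Treg-treated replicate JL019-2 to 0.0835 in Treg day 0 replicate JL019. In sorted bulk RNA, fewer cells of a type and less RNA per cell cannot be told apart.

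Over the 10 groups the members did not share 1 pattern. The group means of Fads2, a desaturase of polyunsaturated fatty acids, spanned 6.99 units of mean log2(value + 1), and those of Scd1, a desaturase of saturated ones, 5.75, with the highest mean in day 0 CD8 cells and the lowest in day 0 Treg for both. Their values ran from 0 to 515 and from 0 to 85.4 over the 31 libraries. Elovl6, which elongates palmitate to stearate, spanned 2.81 units, and Sqle, the squalene epoxidase that is a rate-limiting step of cholesterol synthesis, 2.33. The smallest span was that of Tm7sf2, a sterol reductase, at 0.77. For Elovl6 the pooled SD within groups was 0.211, and for Fasn, the fatty acid synthase, it was 0.997 beside a span of 1.98. Of the 30 members, 25 were called in at least 1 of 13 comparisons between 2 groups, which is 83.3%, beside 70.4% of all 16741 genes. These counts are from the fit of all 31 libraries. The 5 that were called in none are Lss (lanosterol synthase), Tm7sf2, Srebf1, Acaca (acetyl-CoA carboxylase) and Fasn. With cells of the same recipient paired, 3 of these 5 were called in 1 comparison each: Srebf1 between CD8 and CD4 cells of allogeneic recipients, and Lss and Fasn between Treg and CD4 cells of Treg-treated recipients, as given with those comparisons.

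**Figure D1:**
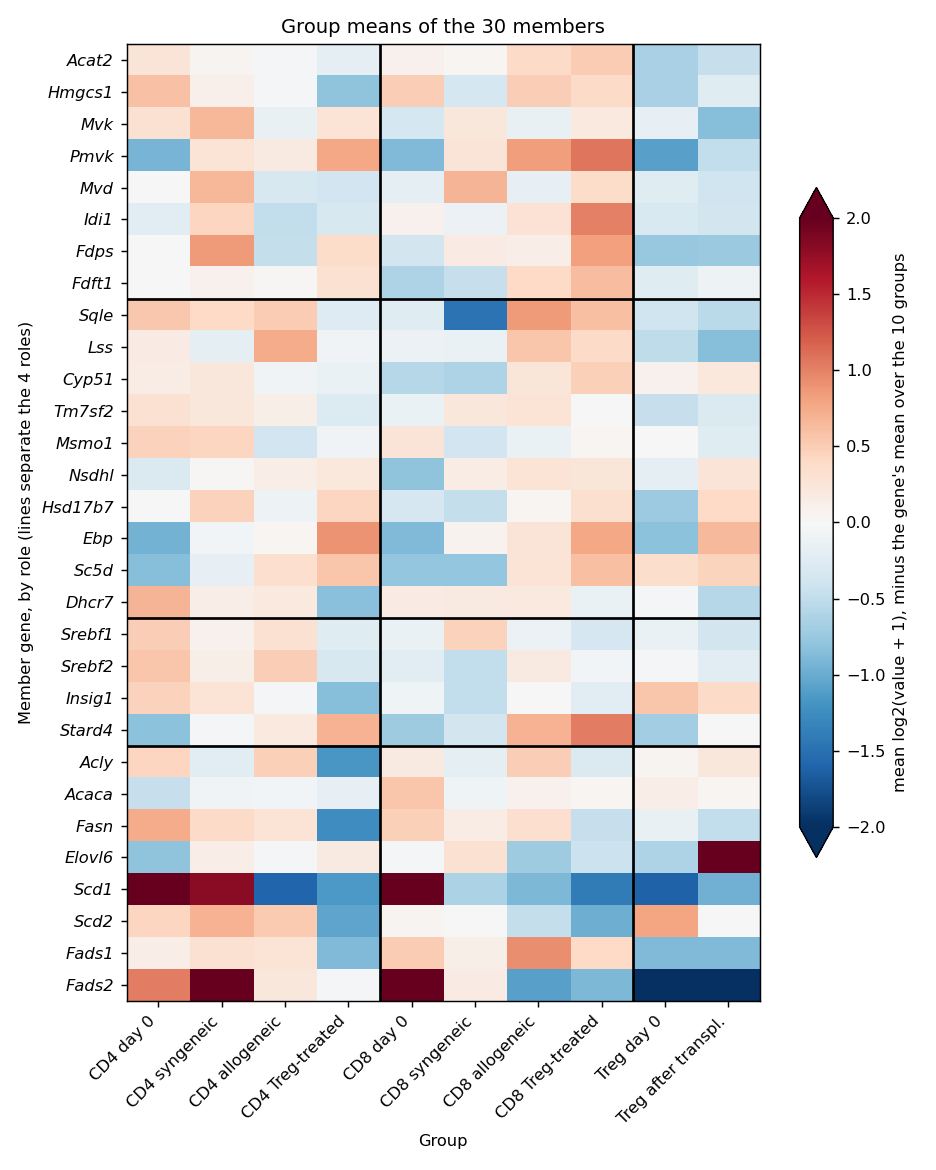
Group means of the 30 members (rows, by role) in the 10 groups (columns), as mean log2(value + 1) minus the gene's mean over the groups, with colours saturating at 2 units. Fads2 and Scd1 are darkest red in day 0 CD8 cells, Elovl6 stands out in Treg after transplantation, and Sqle is lowest in CD8 cells of syngeneic recipients.

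Of the SREBP genes and their anchor, Srebf1 was called in none of the 13 comparisons in the fit of all libraries, Srebf2 in 1 and Insig1 in 2. Srebf2 was 4832 and 4434 in CD4 cells at day 0, 4846, 2169 and 3867 in syngeneic, 5685, 4285, 3426 and 4667 in allogeneic and 2472, 2639, 2743 and 2294 in Treg-treated recipients. In CD8 cells it was 2528 and 2843 at day 0, 2162, 2531 and 2071 in syngeneic, 4318, 4274, 1962 and 4472 in allogeneic and 3971, 1920.5, 3539 and 3131 in Treg-treated recipients. Its CD4 Treg-treated libraries all lay below the allogeneic ones, and in CD8 cells 1 library of each arm, allogeneic JL027-1 and Treg-treated JL019-2, lay below the other 3. In Treg it was 2473 and 3880.0 at day 0 and 2795, 2303 and 3039 after transplantation, which overlap.

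Insig1, the anchor that holds SCAP back, was 1104 and 987 in CD4 cells at day 0, 1274, 627 and 957 in syngeneic, 729.8, 754, 755 and 718 in allogeneic and 301, 353, 750.5 and 392 in Treg-treated recipients. In CD8 cells it was 614 and 821, 624, 624 and 396, 818, 730.2, 717 and 801 and 758, 379, 891 and 719 in the same 4 groups. Of the 4 CD4 Treg-treated libraries, 3 lay below all allogeneic ones, and JL027-1 lay among them. In Treg, Insig1 was 677 and 1823 at day 0 and 1048, 1077 and 849.5 after transplantation. The 2 day 0 Treg libraries differed more from each other than any pair within the CD4 day 0 or allogeneic groups.

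Srebf1 was 1771 and 1757 in CD4 cells at day 0, 1874, 963 and 1294 in syngeneic, 1916, 1863, 949 and 1703 in allogeneic and 1239, 1409.9, 859.6 and 843 in Treg-treated recipients. In CD8 cells it was 1096 and 1185, 1623, 1857 and 1729, 1288, 1504, 548 and 1669 and 1702, 714, 1321 and 593 in the same order of groups. In Treg it was 999 and 1294 at day 0 and 986, 855 and 1088 after transplantation. The lowest of the 4 libraries in both allogeneic groups was JL027-1. With CD8 and CD4 cells of the same allogeneic recipient paired, Srebf1 was lower in CD8 cells, at -0.43 (limma adjusted p 0.0262), the only call among 19 alternatives. Without pairing and without CD8 allogeneic replicate JL027-1 the difference was -0.07 (limma adjusted p 0.961). Between Treg and CD4 cells at day 0, Srebf1 was called lower in 1 of 13 alternatives, the fit of those 2 groups alone, at -0.63 (limma adjusted p 0.0485), where 12.4% of all genes and 11 members were called.

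**Figure D2:**
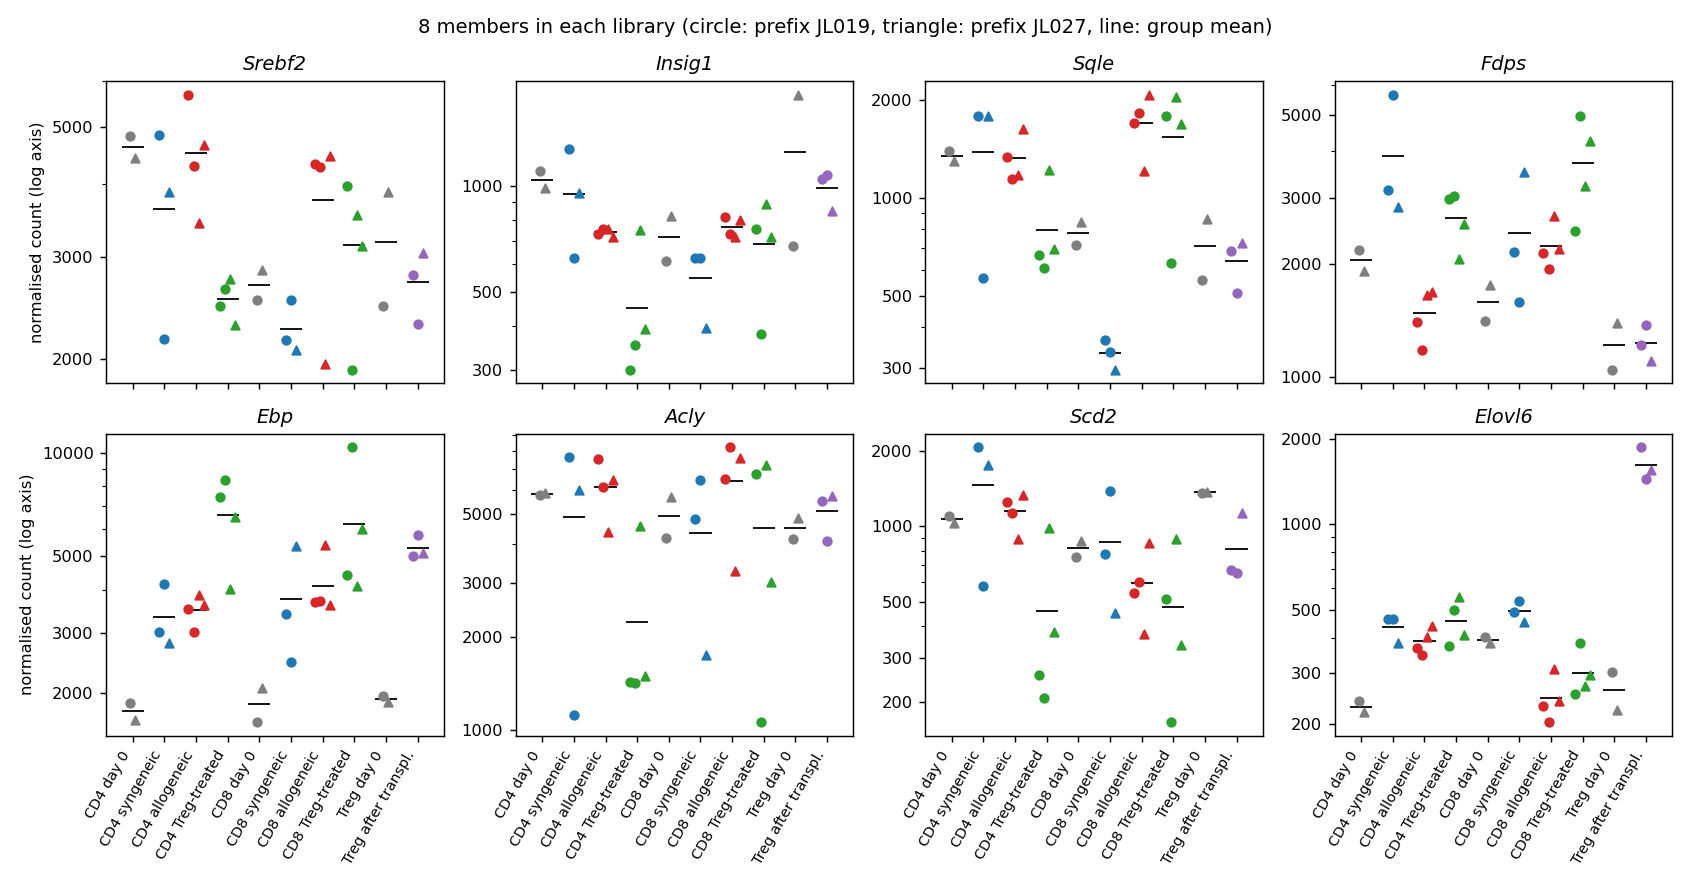
Normalised counts (log axis) of 8 members in every library, grouped by cell type and arm. Lines are arithmetic group means, circles prefix JL019 and triangles prefix JL027. Sqle is lowest in the 3 CD8 syngeneic libraries, Elovl6 highest in the 3 Treg libraries after transplantation, and 3 of 4 CD4 Treg-treated libraries sit low for Acly while replicate JL027-1 sits near the allogeneic ones.

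The first comparisons ask what changed in conventional T cells between day 0 and recovery from a recipient, without alloreactivity (syngeneic) and with it (allogeneic). Both share the day 0 libraries. In CD4 cells of syngeneic recipients 4 of 30 members rose and none fell, where 9.9% of all genes rose and 3.13% fell. In CD4 cells of allogeneic recipients 5 rose and 2 fell, against 14.4% and 9.61% of all genes. The members' shares, 13.3% called in the syngeneic and 23.3% in the allogeneic comparison, were close to the 13% and 24% of all genes, so these counts are not a result about the members. The median log2 change of the members was 0.13 and -0.15, beside -0.036 and -0.04 over all genes.

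Pmvk, the phosphomevalonate kinase, was 225 and 275 in day 0 CD4 cells, 472, 969 and 419 in syngeneic and 536, 479, 510.0 and 628 in allogeneic recipients. Both day 0 libraries lay below all 7 others, and the log2 changes were 1.21 (adjusted p 0.0305 by limma, SE 0.373) and 1.10 (adjusted p 0.0232 by limma, SE 0.354). Sc5d, a sterol desaturase late in the pathway, was 722 and 784, 1074, 1094 and 1528 and 1839.6, 1591, 1825 and 1688 in the same groups. It rose in steps that did not overlap between any of these groups, by 0.69 in syngeneic and 1.20 (adjusted p 5.58e-05 by limma, SE 0.204) in allogeneic recipients on the log2 scale. Stard4, which carries sterol through the cytosol, was 501 and 601, 943, 1010.4 and 898 and 1225, 936, 1234 and 1064, with log2 changes of 0.79 (adjusted p 0.0192 by limma, SE 0.225) and 1.01 (adjusted p 0.00074 by limma, SE 0.214). Its day 0 libraries lay below all others. Elovl6 was 239 and 219, 466, 466 and 382 and 368, 348, 402 and 439.8, changes of 0.93 (limma adjusted p 0.00766) and 0.76 (limma adjusted p 0.0122), again with day 0 below the rest. Ebp, the sterol isomerase, was called in the allogeneic comparison, from 1769.9 ± 146 (SD, n = 2) to 3498 ± 354 (SD, n = 4), a log2 change of 0.98 (limma adjusted p 0.0236).

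The 2 members that fell in CD4 allogeneic against day 0 were Scd1 and Msmo1, a sterol methyl oxidase. Scd1 was 10.3 and 41.6 at day 0 and 3.46, 0, 0 and 0 in allogeneic recipients, where 3 of 4 libraries list it at 0 (log2 change -3.91, limma adjusted p 0.00445). With a pseudocount of 0.1 the change was -6.41 (limma adjusted p 0.0285). Msmo1 was 2158 and 1944 and 884, 996, 1418 and 1359, a log2 change of -0.84 (adjusted p 0.0131 by limma, SE 0.248), with no overlap. Beside these falls, the B cell sum was 7483 to 9393 at day 0 and 284 to 392 in allogeneic recipients. The myeloid sum was 3256 to 4335 at day 0, 83578 to 3688950.0 in syngeneic and 8962 to 16039.5 in allogeneic recipients, and the erythroid sum 749 to 1447, 4857 to 468674 and 465 to 10822. All 12 cell cycle genes had a higher mean in both kinds of recipient than at day 0. The part of these markers in the changes of the members was not tested. Of 22 other genes of the pathway 2 rose and 2 fell in syngeneic and 3 rose and 4 fell in allogeneic recipients, among them Tmem97, a sterol-binding membrane protein, at 1.79 (limma adjusted p 0.00028) and 1.86 (limma adjusted p 4.07e-05). The others named by the rule were Mid1ip1, which aids acetyl-CoA carboxylase (1.80, limma adjusted p 0.000412 in syngeneic recipients), the elongase Elovl1 (0.78, limma adjusted p 0.0093 in allogeneic ones), Acss2, which activates acetate (-1.47, limma adjusted p 0.00962 in syngeneic) and Acsl3, an acyl-CoA synthetase (-3.54, limma adjusted p 0.000103 in allogeneic recipients). The counts rest on the 2 day 0 libraries: without JL019 or without JL027 the syngeneic comparison called 0 members, beside 5.82% and 5.63% of all genes, and the allogeneic one 3 and 2, beside 13.5% and 13%. With 1 library left out at a time, Sc5d and Stard4 were called in the allogeneic comparison in 6 of 6 cases, Msmo1 and Elovl6 in 4 of 6 and Pmvk and Ebp in 3 of 6. Scd1 was -2.95 (limma adjusted p 0.147) without day 0 replicate JL027 and -4.87 (limma adjusted p 0.0102) without JL019. Without CD4 syngeneic replicate JL019-2 the syngeneic comparison called 2, Sc5d and Elovl6, beside 7.93% of all genes. Pmvk was then 0.84 (limma adjusted p 0.207) and Stard4 0.74 (limma adjusted p 0.0633), and neither was called. Over the single libraries left out, Elovl6 was called in the syngeneic comparison in 3 of 5 cases, and Pmvk, Stard4, Sc5d and Acss2 in 2 of 5. With each library centred on its median the calls were 1 higher in the syngeneic, and 3 higher and 2 lower in the allogeneic comparison. Within the libraries of 1 prefix the syngeneic comparison called 0 members in each, and Sc5d was called against day 0 in allogeneic recipients in both prefixes, at 1.24 (limma adjusted p 0.01) and 1.16 (limma adjusted p 0.0149).

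In CD8 cells 4 members rose and 3 fell in syngeneic recipients, against 13% and 11.3% of all genes. In allogeneic recipients 7 rose and 3 fell, against 16.3% and 14.2%. The share of members called, 23.3% and 33.3%, was close to the 24.2% and 30.4% of all genes. By role, 2 of 8 mevalonate genes and 4 of 10 genes from squalene to cholesterol rose in allogeneic recipients and none of either fell, while 3 of 8 fatty acid genes fell and none rose.

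Sqle took opposite directions in the 2 kinds of recipient. It was 719 and 843 at day 0, 366, 335 and 297 in syngeneic and 1694, 1825, 1206 and 2070.0 in allogeneic recipients. The 3 groups did not overlap. It fell by 1.23 on the log2 scale in syngeneic recipients (limma adjusted p 0.0368) and rose by 1.10 in allogeneic ones (limma adjusted p 0.0402). The fall was called in 0 of 5 and the rise in 1 of 6 cases with 1 library left out, with the same direction in each. Stard4 was 559 and 625, 668, 726 and 879 and 1504, 1529, 1679 and 1552, and its rise to the allogeneic level of 1.40 (adjusted p 1.12e-05 by limma, SE 0.214) was called under 15 of 15 alternatives. Nsdhl, a sterol dehydrogenase, was 385 and 456, 866, 639.6 and 953 and 849.6, 756, 1073 and 881, with day 0 below all 7 other libraries. Its log2 changes were 0.95 (adjusted p 0.00149 by limma, SE 0.2) and 1.07 (adjusted p 7.98e-05 by limma, SE 0.189). Sc5d was 679.8 and 934, 814, 672 and 932 and 1446, 1499.9, 2308 and 1505. Its allogeneic libraries lay above all others, a log2 change of 1.05 (adjusted p 0.000244 by limma, SE 0.204) from day 0.

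Pmvk was 226 and 295 at day 0, 491, 424 and 872 in syngeneic and 823, 847, 824 and 907 in allogeneic recipients, and Ebp was 1646 and 2065, 3404, 2465 and 5376 and 3671, 3707, 5379 and 3607. Both rose in both kinds of recipient, Pmvk by 1.13 (limma adjusted p 0.0295) and 1.72 (limma adjusted p 0.0005) and Ebp by 0.95 (limma adjusted p 0.0386) and 1.13 (limma adjusted p 0.00759), with every day 0 library below the rest. Fdft1, the squalene synthase, rose in allogeneic recipients from 924 ± 165 (SD, n = 2) to 1872 ± 345 (SD, n = 4) (log2 change 1.01, limma adjusted p 0.000256), and Mvd, the mevalonate diphosphate decarboxylase, rose in syngeneic ones from 348 ± 80.9 (SD, n = 2) to 632 ± 76.7 (SD, n = 3) (0.87, limma adjusted p 0.0411). Fads2 was 307 and 247 at day 0, 25.0, 40.3 and 21.2 in syngeneic and 4.92, 6.86, 15.6 and 26.6 in allogeneic recipients. Scd1 was 65.8 and 85.4, 0.964, 4.20 and 1.18 and 0, 13.7, 0.978 and 0 in the same groups. For both genes the day 0 libraries lay far above the rest, with log2 changes to the allogeneic level of -4.52 (limma adjusted p 0.000185) and -5.03 (limma adjusted p 0.000322). Elovl6 fell in allogeneic recipients, from 404 and 384 to 232, 202, 310.3 and 239.7, a log2 change of -0.69 (limma adjusted p 0.0184). The B cell sum in CD8 libraries was 19991 to 31564 at day 0, 1137 to 2123 in syngeneic and 809.7 to 1073 in allogeneic recipients, the erythroid sum 31729.8 to 35897, 3332 to 11152 and 579.7 to 14826, the myeloid sum 8069 to 9365, 42566 to 67666 and 12217 to 17979.5 and the cell cycle sum 14171 to 15241, 44448 to 52029.7 and 83446 to 121395. At day 0 the B cell sum was mostly Jchain, at 18246 and 29108. In allogeneic recipients it was mostly Cd79b, at 794, 781, 947 and 683. All 8 B cell genes had a lower mean in both kinds of recipient than at day 0. The part of these sums in any of these changes was not tested. Of the 22 other pathway genes 2 rose and 1 fell in syngeneic and 5 rose and 4 fell in allogeneic recipients. In the latter Tmem97 changed by 1.70 (limma adjusted p 0.000114), Elovl1 by 0.90 (limma adjusted p 0.00253) and Acsl3 by -4.13 (limma adjusted p 1.14e-05). Without CD8 day 0 replicate JL019 the syngeneic comparison called 1 member, beside 5.98% of all genes, and without CD8 syngeneic replicate JL019-1 or JL027 it called 4, beside 15.6% and 12.7%. With 1 library left out at a time, Scd1 was called in the syngeneic comparison in 5 of 5 cases, Fads2 and Nsdhl in 4 of 5, Pmvk in 3 of 5, Mvd in 2 of 5, Ebp in 1 of 5 and Sqle in 0 of 5. In the allogeneic comparison Sqle was called in 1 of 6, Elovl6 in 3 of 6, Ebp in 5 of 6 and the other 7 in 6 of 6, with Scd1 at -5.92 (limma adjusted p 2.17e-05) without CD8 allogeneic replicate JL019-2. Within prefix JL019 and JL027 the allogeneic comparison called 6 and 5 members, Fdft1, Nsdhl, Sc5d and Stard4 in both.

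Comparing allogeneic with syngeneic recipients sets cells in an allogeneic host against cells in a syngeneic one. In CD4 cells 6 of 30 members fell and none rose, against 7.91% and 6.69% of all genes. That is 20% of the members beside 14.6% of all genes. All 8 mevalonate genes had a log2 change below 0, and 6 to 8 of them over the alternatives (Pmvk was 0.27 (limma adjusted p 0.754) without syngeneic replicate JL019-2). Of the 8, 3 fell: Fdps (farnesyl diphosphate synthase), Mvd and Idi1 (isopentenyl diphosphate isomerase). Fdps was 3144, 5664 and 2831 in syngeneic and 1400.1, 1179.6, 1649 and 1684 in allogeneic recipients, a log2 change of -1.34 (adjusted p 0.000616 by limma, SE 0.261) with no overlap. Mvd was 640.1, 589.8 and 639.7 and 358, 307, 270.0 and 328, a log2 change of -0.98 (adjusted p 0.00899 by limma, SE 0.259). Its allogeneic libraries all lay below the syngeneic ones. Idi1 was 2256, 1433 and 2877 and 946, 891, 1395 and 1270.2 (-0.93, limma adjusted p 0.0417), again without overlap.

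The other 3 were Scd1, Fads2 and Msmo1. Fads2 was 120.5, 515 and 114 in syngeneic and 48.5, 29.0, 23.8 and 20.9 in allogeneic recipients (-2.69, limma adjusted p 0.014), with the highest value by far in syngeneic replicate JL019-2. Scd1 was 17.3, 25.3 and 6.25 against 3.46, 0, 0 and 0 (-3.38, limma adjusted p 0.00809), a change of -5.85 (limma adjusted p 0.0354) with a pseudocount of 0.1. The same library had the highest myeloid and erythroid sums. The myeloid sums were 83578 to 3688950.0 in syngeneic and 8962 to 16039.5 in allogeneic libraries, the erythroid sums 4857 to 468674 and 465 to 10822 and the B cell sums 439.9 to 9030.3 and 284 to 392. Without that library 3 members were called, beside 10.9% of all genes: Fdps at -1.03 (limma adjusted p 0.0109), Mvd at -1.02 (limma adjusted p 0.0212) and Idi1 at -1.20 (limma adjusted p 0.0162). The other 3 were then not called, with Scd1 at -2.99 (limma adjusted p 0.056), Fads2 at -1.98 (limma adjusted p 0.134) and Msmo1 at -0.71 (limma adjusted p 0.0637). Without CD4 allogeneic replicate JL019-1 the count was 4. Fdps and Mvd were called in 7 of 7 cases with 1 library left out, and Idi1 in 2 of 7. Within prefix JL019 it was 3, and within JL027, which has 1 syngeneic library, it was 0.

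In CD8 cells 5 members rose and 2 fell between syngeneic and allogeneic recipients, against 10.4% and 10.7% of all genes, which puts 23.3% of the members beside 21.1% of all genes, so that the count is not a result about the members. Those that rose were Fdft1, Sqle, Cyp51 (the lanosterol demethylase), Sc5d and the carrier Stard4. The 10 genes from squalene to cholesterol all had a change above 0, and 8 to 10 of them over the alternatives (8 with libraries centred on their medians), with a median log2 change of 0.38 beside 0.017 over all genes, and 3 of the 10 were called. Sqle (ENSMUSG00000022351) was the member that differed most, 5.01-fold higher in allogeneic recipients (log2 change 2.33, adjusted p 1.72e-05 by limma, SE 0.356), with the library values given above. It was called under 17 of 17 alternatives, with log2 changes of 2.22 to 2.48. Fdft1 was 984, 831 and 1310.1 in syngeneic and 1734, 1602, 2377 and 1776 in allogeneic recipients (0.85, adjusted p 0.000589 by limma, SE 0.173). Its groups did not overlap, and neither did those of Sc5d (1.05, adjusted p 7.48e-05 by limma, SE 0.18), Stard4 (1.05, limma adjusted p 0.00013) and Cyp51 (0.86, limma adjusted p 0.0491), whose means were 969.6 ± 186 (SD, n = 3) and 1768 ± 362 (SD, n = 4).

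The 2 members that fell in CD8 cells were Elovl6, from 493, 541 and 455 to 232, 202, 310.3 and 239.7 (-1.02, adjusted p 0.000286 by limma, SE 0.195), and Mvd, from 627, 559 and 712 to 432, 439.6, 192 and 408 (-0.85, adjusted p 0.0191 by limma, SE 0.259). Both lacked overlap. Without CD8 allogeneic replicate JL027-1, in which Mvd was lowest, Mvd was at -0.56 (limma adjusted p 0.0845) and not called. Srebf2 had a log2 change of 0.67 (limma adjusted p 0.0926), and without the same library it was called at 0.95 (limma adjusted p 0.00893). Beside these changes, the 12 cell cycle genes summed to 44448 to 52029.7 in syngeneic and 83446 to 121395 in allogeneic CD8 libraries, the myeloid genes to 42566 to 67666 and 12217 to 17979.5 and the B cell genes to 1137 to 2123 and 809.7 to 1073. Of the 8 B cell genes 4 had a higher and 4 a lower mean in allogeneic recipients. In the syngeneic libraries the myeloid sum was mostly S100a8, S100a9 and Lyz2, and 9 of 12 myeloid genes had a lower mean in allogeneic recipients. Cst3 and 2 others had a higher one: Cd68 was 151, 132 and 264 in syngeneic and 1252, 1049, 1345 and 1028 in allogeneic libraries, and Itgam 178, 386 and 68.8 and 788, 927, 509 and 865. The part of these markers was not tested. With 1 library left out at a time, Mvd was called in 4 of 7 and Cyp51 in 1 of 7 cases, and the other 5 members in 7 of 7. Within prefix JL027 the count was 4 and within JL019 it was 5, and Sqle and Sc5d were called in both.

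Of 24 other genes of the pathway 22 were in the table. In CD8 cells 5 of the 22 rose, 4 fell and 13 were not called in the same comparison. Me1, the malic enzyme that supplies NADPH, was 0, 3.10 and 0 in syngeneic and 22.9, 30.7, 48.5 and 53.3 in allogeneic recipients (4.56, limma adjusted p 0.000305). It is listed at 0 in 2 of the syngeneic libraries. Acsl3 and Npc1, a lysosomal cholesterol exporter, fell by 2.46 and 1.14 on that scale. In CD4 cells 3 of the 22 fell and none rose, among them Acsl3 (-2.97, limma adjusted p 0.000379).

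Of the genes of sterol export and storage, 12 of 13 were in the table, and 5 of the 12 fell in CD4 and 4 in CD8 cells, against 7.91% and 10.7% of all genes. None was called higher in either, and the others were not called. Mylip, a ubiquitin ligase, was 989.9, 1282 and 949.7 in CD8 cells of syngeneic and 193, 173, 97.5 and 118 of allogeneic recipients (-2.92, adjusted p 7.41e-09 by limma, SE 0.278). Abcg1, a cholesterol exporter, was 916, 1162 and 1001 and 226, 166, 98.0 and 166 (-2.69, adjusted p 1.22e-08 by limma, SE 0.264). Both are known targets of the liver X receptors, and in both the groups lay far apart. In CD4 cells Abcg1 changed by -1.19 (limma adjusted p 0.00209) and Apoe, a lipoprotein component that macrophages also express, by -3.63 (limma adjusted p 0.000244). Apoe was 109.5, 1858 and 72.2 in the syngeneic libraries, highest in JL019-2, the library of the highest myeloid sum, and 20.1, 15.8, 18.2 and 22.5 in the allogeneic ones. Without JL019-2 its change was -2.17 (limma adjusted p 0.000975), and without syngeneic replicate JL027 -4.50 (limma adjusted p 2.32e-05). Cyp27a1 and Nr1h3, also called lower in CD4 cells, were 7.56, 355 and 16.9 and 20.0, 82.8 and 25.4 in the syngeneic libraries, highest in JL019-2. With 1 library left out at a time, Abcg1 and Apoe were called in CD4 cells in 7 of 7 cases, Nr1h3 in 6 of 7, Cyp27a1 in 5 of 7 and Mylip in 3 of 7. The myeloid sums were higher in the syngeneic libraries of both cell types, as given above, and their part was not tested.

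**Figure D3:**
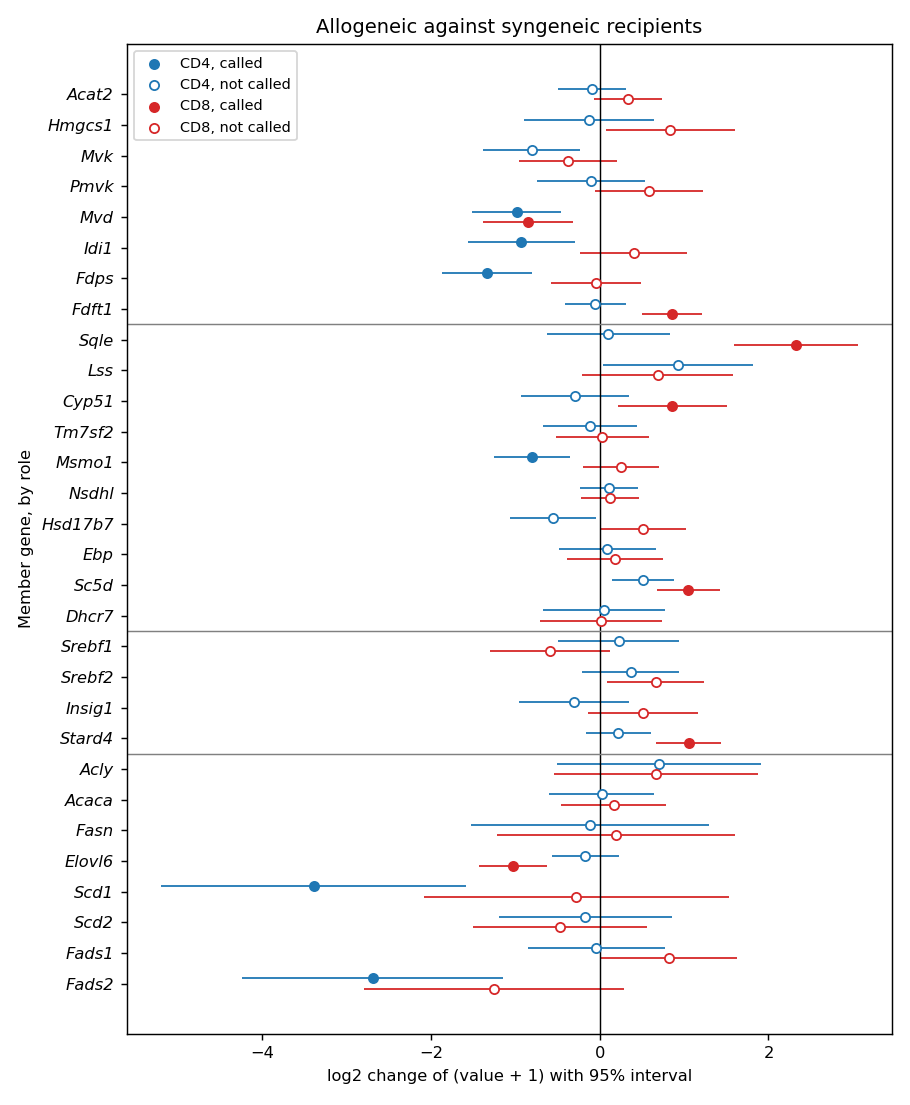
Log2 change of each member between syngeneic and allogeneic recipients (x axis, with its 95% interval) in CD4 (blue) and CD8 cells (red). Filled points were called. The called CD4 points all lie left of 0, and the called CD8 points lie right of 0 except Mvd and Elovl6.

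The allogeneic effect was tested for a difference between CD8 and CD4 cells. In 4 members it was higher in CD8 cells, and in none lower, against 2.69% and 1.96% of all genes, or 13.3% of the members beside 4.65% of all genes. The difference was 2.22 (adjusted p 0.00781 by limma, SE 0.503) for Sqle, 1.29 (adjusted p 0.0406 by limma, SE 0.369) for Fdps, 1.05 (adjusted p 0.0482 by limma, SE 0.309) for Msmo1 and 0.90 (adjusted p 0.0298 by limma, SE 0.245) for Fdft1. Sqle, which rose in CD8 cells, was 1788, 567 and 1785 in CD4 cells of syngeneic and 1338, 1146, 1171 and 1629.7 of allogeneic recipients, a log2 change of 0.10 that without the low replicate JL019-2 was -0.45 (limma adjusted p 0.526). Fdft1 was 1670.2, 1279 and 1553 and 1409, 1365, 1453 and 1543 in CD4 cells, a log2 change of -0.05. Fdps, which fell in CD4 cells, was 2149, 1585 and 3518 in CD8 cells of syngeneic and 2143, 1945, 2684 and 2189 of allogeneic recipients (-0.04), and Msmo1 had a CD8 change of 0.25. All 8 mevalonate genes had a difference above 0, and 6 to 8 of them over the alternatives. Without CD4 syngeneic replicate JL019-2, Sqle and Fdft1 were called, Fdps and Msmo1 were not, at 0.99 (limma adjusted p 0.146) and 0.96 (limma adjusted p 0.114), and Idi1 and Cyp51 were, at 1.61 (limma adjusted p 0.0346) and 1.53 (limma adjusted p 0.0373). The call for Sqle held under 23 of 25 alternatives, that for Fdft1 under 12 of 25 and that for Fdps under 11 of 25. With CD4 and CD8 cells of the same recipient paired, by arm and number in the titles, Sqle was the only call (2.22, limma adjusted p 0.038), beside 2.62% of all genes. Sqle was likewise the only call with libraries centred on their medians. The count was 1 without CD4 allogeneic replicate JL019-1 or JL019-2 or CD8 syngeneic replicate JL019-1 or JL019-2, and 2 without CD4 syngeneic replicate JL027 or CD8 allogeneic replicate JL019-1, JL027-1 or JL027-2, 1 of the 2 being lower in CD8 cells without JL027-1. Within either prefix it was 0. Of the 22 other pathway genes the difference was higher in 3, and of the 12 export genes it was lower in 2, Mylip (-2.01, limma adjusted p 0.00219) and Abcg1 (-1.50, limma adjusted p 0.017).

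Treg treatment was examined by comparing Treg-treated with allogeneic recipients. In CD4 cells 3 members rose and 6 fell, against 10.7% and 11.5% of all genes, so that 30% of the members and 22.2% of all genes were called. Those that fell include both the SREBP gene Srebf2 and its brake Insig1, the last reductase of cholesterol synthesis Dhcr7, the citrate lyase Acly that supplies cytosolic acetyl-CoA, and the desaturases Scd2 and Fads1. Those that rose were Fdps, Ebp and Stard4. The median change of the 8 fatty acid genes was -0.71 and that of the 8 mevalonate genes 0.22, beside -0.0018 over all genes.

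Acly (ENSMUSG00000020917) was 7550.0, 6133, 4362 and 6464 in allogeneic and 1432, 1422, 4558 and 1501 in Treg-treated recipients, a log2 change of -1.64 (adjusted p 0.0337 by limma, SE 0.545). The other 3 Treg-treated libraries lay below all allogeneic ones and JL027-1 lay among the allogeneic ones. Scd2, a desaturase of saturated fatty acids, was 1244, 1128, 889 and 1328 and 257, 208, 988 and 380.4 (-1.59, adjusted p 0.0202 by limma, SE 0.462), and Fads1 was 457, 373, 298 and 446 and 144, 199, 324 and 98.0 (-1.16, adjusted p 0.027 by limma, SE 0.365). In both, JL027-1 was again the Treg-treated library that overlapped with the allogeneic group. Dhcr7 was 889, 739.5, 847 and 1029 and 298, 339, 726 and 442 (-1.03, adjusted p 0.0267 by limma, SE 0.325), without overlap, and Srebf2, whose values are above, changed by -0.81 (adjusted p 0.0281 by limma, SE 0.259). Insig1 changed by -0.81 (limma adjusted p 0.0473).

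Fdps was 1400.1, 1179.6, 1649 and 1684 in allogeneic and 2980.4, 3029, 2065 and 2554 in Treg-treated recipients (0.84, adjusted p 0.019 by limma, SE 0.242). Ebp (ENSMUSG00000031168) was 3505, 3014, 3857 and 3615 and 7459, 8324, 4022 and 6489 (0.86, adjusted p 0.022 by limma, SE 0.257). Stard4 was 1225, 936, 1234 and 1064 and 1395, 1848, 1435 and 1629.7 (0.50, limma adjusted p 0.0409). For each of the 3 genes the whole Treg-treated group lay above the allogeneic one, with JL027-1 the lowest of the 4 for Fdps and Ebp. Fasn, at 2069.8, 1951, 1108 and 1927 and 336, 524, 1637 and 440.0, had a log2 change of -1.52 that was not called (limma adjusted p 0.083).

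These calls rest on few libraries. With CD4 allogeneic replicate JL019-1 or JL019-2, or CD4 Treg-treated replicate JL019-1, JL019-2 or JL027-2 left out, 0 members were called, beside 2.81% to 8.64% of all genes. Without allogeneic JL027-2 it was 3, beside 13.6% of all genes. Without Treg-treated JL027-1 it was 13, beside 33.6% of all genes, among them Hmgcs1, the HMG-CoA synthase, at -1.15 (limma adjusted p 0.00845), Sqle at -0.99 (limma adjusted p 0.0262) and Fasn at -2.0 (limma adjusted p 0.0205). Within prefix JL019 the 9 members changed in the same direction as over all libraries, and so they did within JL027, but none was called in either. They had been picked by their calls in these same libraries, so the shared direction is not an independent test. Acly was -2.25 (limma adjusted p 0.0793) in JL019 and -1.02 (limma adjusted p 0.794) in JL027. With libraries centred on their medians 4 members were called higher and 4 lower, and Srebf2 and Insig1 were not called, at -0.56 (limma adjusted p 0.0531) and -0.56 (limma adjusted p 0.103). The mean of the library medians was 7.99 in CD4 Treg-treated and 8.19 in CD4 allogeneic libraries on the log2 scale.

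The length trend moved with this comparison. It averaged 0.0297 ± 0.0111 (SD, n = 4) over the CD4 libraries of allogeneic and -0.0680 ± 0.0600 (SD, n = 4) over those of Treg-treated recipients, and the Treg-treated library that stayed near the allogeneic ones, JL027-1, had a trend of 0.0161 against -0.121 to -0.0688 in the other 3. With the trend taken out of every library 8 of the 9 members were called, among them Acly at -1.48 (limma adjusted p 0.0425) and Ebp at 0.76 (limma adjusted p 0.026), and Srebf2 was not (-0.64, limma adjusted p 0.0563). The genomic span includes introns and is not the length of the RNA, so a part of RNA length in these calls was not tested. The myeloid sums were 28179 to 97495 in CD4 Treg-treated and 8962 to 16039.5 in CD4 allogeneic libraries, the erythroid sums 5519.5 to 62621 and 465 to 10822 and the cell cycle sums 59754 to 67957 and 44407 to 59580.5. Of the myeloid genes 8 of 12 had a higher mean in Treg-treated recipients, while Itgam was 571, 489.7, 392 and 419 in allogeneic and 121, 112, 304 and 76.7 in Treg-treated libraries. Cd4 itself was 21374, 21480.5, 16706 and 19519 and 9108, 8722, 17587 and 9369.5, low in the same 3 Treg-treated libraries as Acly. The part of these markers was not tested.

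**Figure D4:**
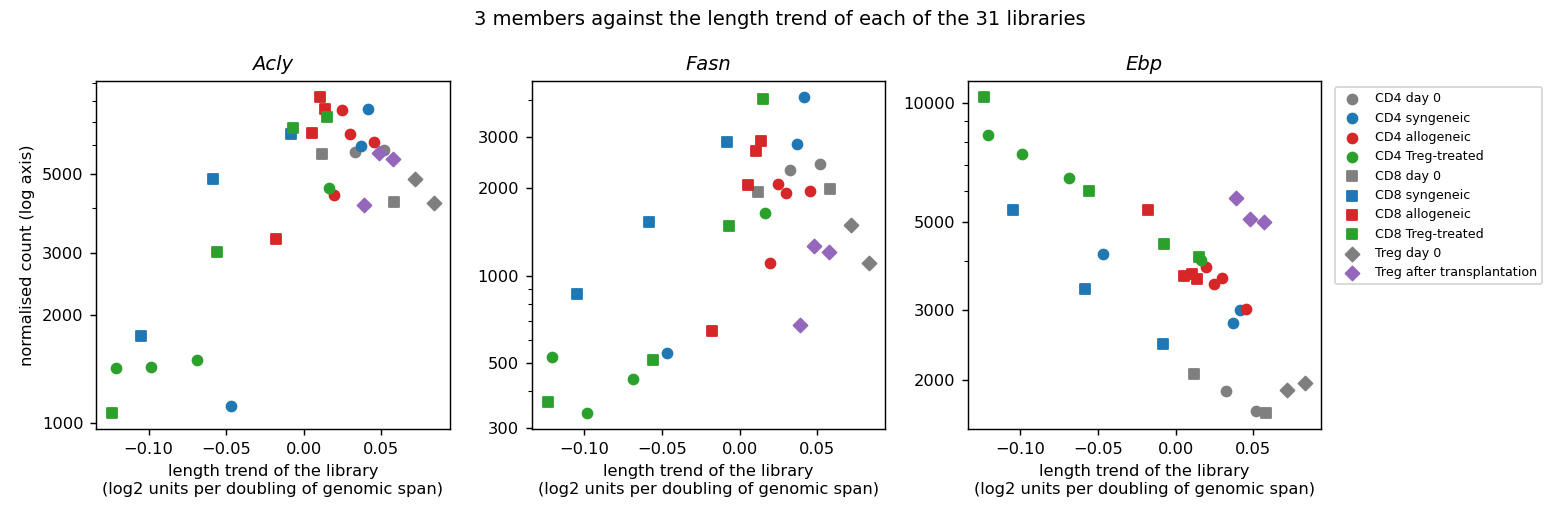
Normalised counts (log axis) of Acly, Fasn and Ebp against the length trend of the library, the slope of log2 value on log2 genomic span, in all 31 libraries. Colours give the arm and symbols the cell type. The 5 libraries with the lowest trends, 3 CD4 Treg-treated, 1 CD8 Treg-treated and 1 CD8 syngeneic, lie at the low end for Acly. The Treg-treated ones among them also lie at the low end for Fasn and are the highest for Ebp. The CD8 syngeneic one, at 865 for Fasn and 5376 for Ebp, is less extreme.

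In CD8 cells no member was called between Treg-treated and allogeneic recipients, where limma called 11 of 16741 genes, or 0.0657% (0.0478% higher and 0.0179% lower). At an unadjusted p below 0.05 there were 3 members, Fdps, Idi1 and Mvd. Their log2 changes were 0.69 (95% interval 0.20 to 1.19), 0.72 (0.14 to 1.31) and 0.54 (0.05 to 1.03). Acly was 6502, 8217, 3269 and 7601 in allogeneic and 6714, 1061, 7229 and 3005 in Treg-treated recipients, a log2 change of -0.78 with an interval of -1.89 to 0.34, and its 2 low Treg-treated libraries, JL019-2 and JL027-2, were those of the lowest length trend in the group. The Treg effect was not shown to differ between CD8 and CD4 cells in any member. Of all genes limma called 1, or 0.00597%, and 0 members had an unadjusted p below 0.05. For Acly the difference of the effects was 0.86, with an interval of -0.72 to 2.45.

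Of the other genes of the pathway, 7 of 22 fell and none rose in CD4 cells of Treg-treated recipients, against 11.5% and 10.7% of all genes. Acss2 fell from 2279, 1878, 1352 and 1644 to 567, 472, 887 and 476 (-1.60, adjusted p 0.00348 by limma, SE 0.294), and Lpin1, a phosphatidate phosphatase, by 1.88 (limma adjusted p 0.00962). All 4 Treg-treated values of Acss2 lay below the allogeneic ones, with JL027-1, at 887, the highest of the 4. Of the export genes 1 of 12 rose, the liver X receptor gene Nr1h3 (2.10, limma adjusted p 0.00662), which macrophages also express, and 1 fell, the exporter Abca1 (-1.66, limma adjusted p 0.0344). Acss2, Lpin1 and Nr1h3 were called in 8 of 8 cases with 1 library left out, and Abca1 in 2 of 8.

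**Figure D5:**
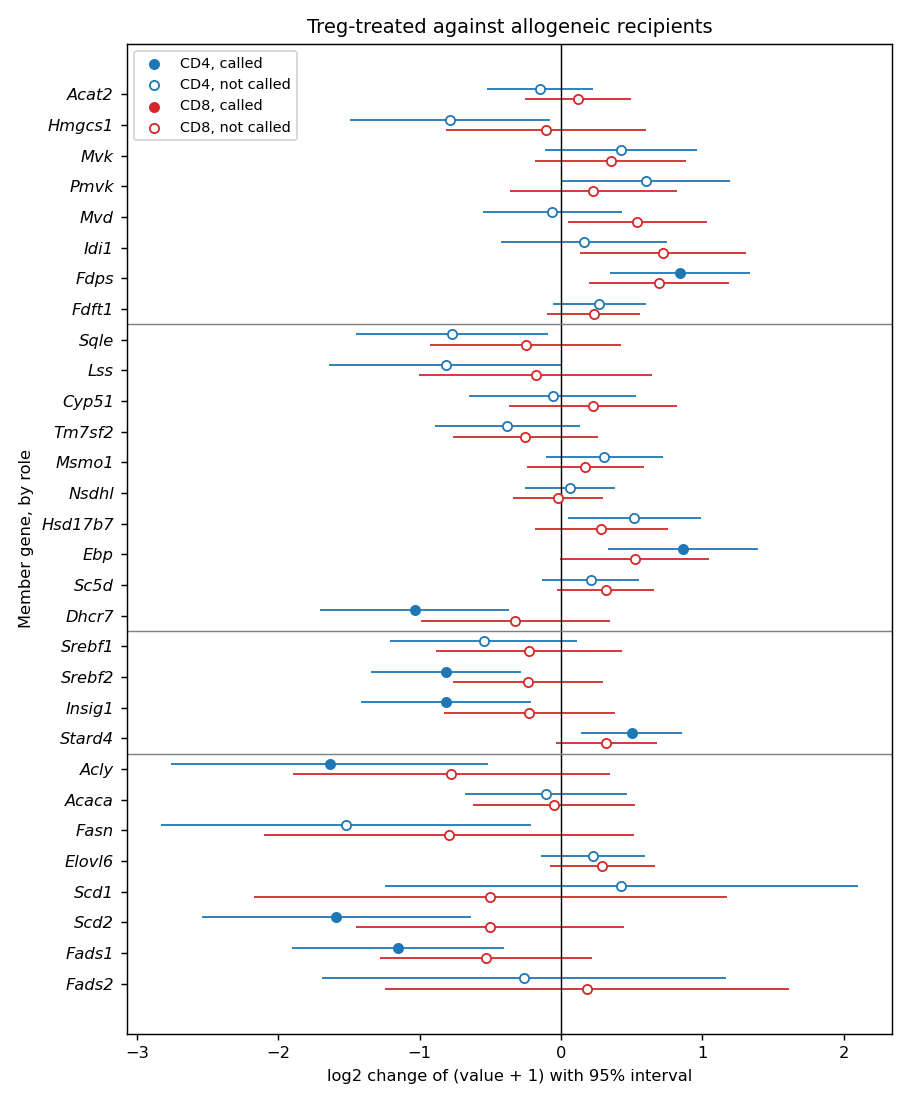
Log2 change of each member between allogeneic and Treg-treated recipients (x axis, with its 95% interval) in CD4 (blue) and CD8 cells (red). Filled points, 9 for CD4 and 0 for CD8 cells, were called. Most intervals of the 2 cell types overlap.

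In Treg the comparison of cells recovered after transplantation with day 0 cells called 4 members higher and none lower, against 8.43% and 4.89% of all genes. The share of members called equals the 13.3% of all genes. In the same comparison the erythroid sum was 122 to 460.2 at day 0 and 1708 to 50528 after transplantation, the myeloid sum 5524 to 5690.2 and 6693 to 11626, the B cell sum 1242 to 1479 and 567 to 827 and the cell cycle sum 6119.5 to 7609 and 30905 to 36018, and their part was not tested. Elovl6 (ENSMUSG00000041220) rose 6.17-fold, from 304 and 223 to 1863, 1444 and 1557 (2.63, adjusted p 7.77e-09 by limma, SE 0.233), and the change was called under 14 of 14 alternatives and within each prefix. The 3 values after transplantation exceeded those of all 28 other libraries. Ebp rose from 1963 and 1887 to 5024, 5752 and 5101 (1.46, adjusted p 0.00302 by limma, SE 0.332). Hsd17b7, a sterol keto reductase, rose from 145 and 294 to 370.4, 510.1 and 488 (1.12, limma adjusted p 0.00996), a change that without day 0 replicate JL019 was 0.62 (limma adjusted p 0.4) and not called. Stard4 rose from 598 ± 79.5 (SD, n = 2) to 979 ± 137 (SD, n = 3) (0.71, limma adjusted p 0.0352). None of these groups overlapped. Elovl6 and Ebp were called in 5 of 5 cases with 1 library left out, and Stard4 in 1 of 5. The count was 2 without Treg day 0 replicate JL019, beside 6.5% of all genes, 2 within prefix JL019 and 1 within JL027. Of the other pathway genes Acsl3 fell (-3.25, limma adjusted p 0.001), while the elongase Elovl1 (1.08, limma adjusted p 0.0017) and Tmem97 (1.38, limma adjusted p 0.00395), rose. Apoe was the 1 export gene called, at -4.32 (limma adjusted p 0.000241).

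At day 0, Treg differed from CD4 cells in 3 members, 1 higher and 2 lower, where 2.54% and 1.34% of all genes did (3.89% in all), and 1 of 12 export and storage genes, Lpcat3, a phospholipid acyltransferase, was lower (-1.25, limma adjusted p 0.00511). Sc5d was 1700.3 and 1800.3 in Treg and 722 and 784 in CD4 cells (1.22, adjusted p 0.00192 by limma, SE 0.235). Fads2 was 0 and 3.70 and 58.7 and 44.9 (-4.59, limma adjusted p 0.00517), and Acat2, the thiolase of the first step, 657 and 917 and 1450.2 and 1462 (-0.91, limma adjusted p 0.0432). The groups did not overlap for any of the 3. Nor did they for the B cell sum, 1242 to 1479 in Treg and 7483 to 9393 in CD4 cells, the erythroid sum, 122 to 460.2 and 749 to 1447, the myeloid sum, 5524 to 5690.2 and 3256 to 4335, or the cell cycle sum, 6119.5 to 7609 and 3261 to 3756, and their part was not tested. Of the 8 B cell genes 2 had a higher mean in Treg and 6 a lower one. Cd79b was 783 and 779 in Treg and 250 and 185 in CD4 cells. All 8 mevalonate genes were lower in Treg in mean log2, and 4 to 8 of them over the alternatives (5 without Treg day 0 replicate JL019), with a median difference of -0.36 beside 0.073 over all genes, and Acat2 was the 1 called. With libraries centred on their medians 1 member was called in each direction. Without CD4 day 0 replicate JL019 or Treg day 0 replicate JL019 the count was 1, beside 1.56% and 1.76% of all genes, and within either prefix it was 0. Sc5d was called in 4 of 4 cases with 1 library left out, Fads2 and Lpcat3 in 2 of 4 and Acat2 in 0 of 4. Fads2 was -3.48 (limma adjusted p 0.167) without Treg day 0 replicate JL019, the library at 0, -5.71 (limma adjusted p 0.00708) without JL027 and -6.38 (limma adjusted p 0.0135) with a pseudocount of 0.1.

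In Treg-treated recipients, Treg had 2 members higher and 5 lower than CD4 cells, against 13.9% and 16.1% of all genes (30% in all, and 23.3% of the members). Elovl6 was 1863, 1444 and 1557 in Treg and 374, 501, 555 and 410.4 in CD4 cells (1.82, adjusted p 1.62e-07 by limma, SE 0.195), and Insig1 differed by 1.23 (adjusted p 0.00534 by limma, SE 0.317). Both were without overlap. The members lower in Treg were Fdps (-1.10, limma adjusted p 0.00286), Pmvk (-1.26, limma adjusted p 0.00386), Mvk, the mevalonate kinase (-1.13, limma adjusted p 0.00413), Stard4 (-0.69, limma adjusted p 0.008) and Fads2 (-2.15, limma adjusted p 0.0322). Mvk was 105, 99.6 and 123 in Treg and 261, 348, 164 and 220.4 in CD4 cells, Pmvk 352, 363 and 303 and 787, 1222, 523 and 876, and Fdps 1213, 1372 and 1101 and 2980.4, 3029, 2065 and 2554. In each of the 3 the lowest CD4 value was that of JL027-1. Of the 22 other pathway genes 4 were higher in Treg, led by Acss2 (1.55, limma adjusted p 0.000839), and 2 lower, among them Tmem97 (-1.67, limma adjusted p 7.78e-05). Of the export genes 4 of 12 were higher, led by Abca1 (3.86, limma adjusted p 4.52e-05) and Abcg1 (1.25, limma adjusted p 0.00112). Both were called in 7 of 7 cases with 1 library left out, while Mylip and Soat1, also among the 4, were called in 1 of 7. The length trend was 0.0480 ± 0.00928 (SD, n = 3) in Treg and the myeloid sum 6693 to 11626, against -0.0680 ± 0.0600 (SD, n = 4) and 28179 to 97495 in CD4 cells, and the cell cycle sum was 30905 to 36018 in Treg and 59754 to 67957 in CD4 cells. Their part was not tested. Treg and CD4 cells of the same recipient could be paired for 2 recipients, both of prefix JL019, since the third Treg library carries no number. In that paired fit 7 members were called higher and 6 lower, where 38.4% of all genes were called, among them Acly at 1.73 (limma adjusted p 6.64e-05) and Hmgcs1 at 1.06 (limma adjusted p 0.00406). Lss, at -0.99 (limma adjusted p 0.0242), and Fasn, at 1.11 (limma adjusted p 0.0325), were called there too, and Stard4, at -0.61 (limma adjusted p 0.0536), was not. With 1 library left out at a time, Stard4 was called in 6 of 7 and Fads2 in 4 of 7 cases, and the other 5 members in 7 of 7. Fads2 was -0.90 (limma adjusted p 0.365) without Treg replicate JL019-2 and -2.82 (limma adjusted p 0.0178) without JL027. Within prefix JL027 the count was 1, Elovl6, beside 1.26% of all genes.

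CD8 and CD4 cells of the same arm were compared last. In allogeneic recipients 1 member was called, Elovl6, lower in CD8 cells at -0.67 (adjusted p 0.0216 by limma, SE 0.18), against 6.15% of all genes (3.05% higher and 3.09% lower). It was 232, 202, 310.3 and 239.7 in CD8 and 368, 348, 402 and 439.8 in CD4 cells, without overlap. The cell cycle sum was 83446 to 121395 in CD8 and 44407 to 59580.5 in CD4 allogeneic libraries and the B cell sum 809.7 to 1073 and 284 to 392, neither with overlap. In CD8 cells the B cell sum was mostly Cd79b, at 794, 781, 947 and 683 against 184, 118, 174 and 141 in CD4 cells. Of the 8 B cell genes 3 had a higher mean in CD8 cells and 5 a lower one. The part of these markers in the call was not tested. With cells of the same recipient paired in a fit of these 2 groups, 10 members were higher and 3 lower in CD8 cells, against 25.8% of all genes called, and Elovl6 was -0.67 (limma adjusted p 0.00569). The lowest adjusted p among them was that of Scd2, at -1.0 (limma adjusted p 0.000105), and Idi1 was 0.78 (limma adjusted p 0.000212) and Fdps 0.60 (limma adjusted p 0.000787). Srebf1 was the third of those lower in CD8 cells, beside Scd2 and Elovl6. The unpaired fit of the same 2 groups called 6. Tmem97 was the 1 other pathway gene called, higher in CD8 cells (0.83, limma adjusted p 0.0481, called in 0 of 8 cases with 1 library left out), and of the export genes Abcg1 (-1.20, limma adjusted p 0.00214) and Mylip (-1.13, limma adjusted p 0.00621) were lower. The call for Elovl6 was lost without CD4 allogeneic replicate JL027-1 or JL027-2, without CD8 allogeneic replicate JL019-1, JL019-2 or JL027-2, with libraries centred on their medians, with the length trend removed and within either prefix, although the log2 change stayed between -0.79 and -0.59 under all 19 alternatives.

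In Treg-treated recipients 5 members were higher and 1 lower in CD8 than in CD4 cells, against 4.9% and 4.71% of all genes, or 20% of the members and 9.61% of all genes. Idi1 was 2795, 2179, 3879 and 4036 in CD8 and 902, 802, 2284 and 1425 in CD4 cells (1.33, adjusted p 0.00235 by limma, SE 0.285), with an overlap of 1 library, CD4 JL027-1. Acat2 was 1726, 1419, 1677 and 2122 and 793, 1079, 1418 and 1068 (0.69, adjusted p 0.0143 by limma, SE 0.182), which do not overlap. Fads1 was 704, 164, 577 and 493 and 144, 199, 324 and 98.0 (1.29, adjusted p 0.0226 by limma, SE 0.365), where CD8 JL019-2 lay among the CD4 values. Hmgcs1 (1.19, limma adjusted p 0.026) and Mvd (0.75, limma adjusted p 0.0454) were the others higher in CD8 cells, so that 4 of 8 mevalonate genes were called, and Elovl6, at 255, 384, 270.2 and 297 in CD8 and 374, 501, 555 and 410.4 in CD4 cells, was lower (-0.61, limma adjusted p 0.0303). Of the other pathway genes 2 were higher, among them Lpin1 (1.47, limma adjusted p 0.027), and Abcg1 of the export genes was lower in CD8 cells (-1.43, limma adjusted p 0.000211). With cells of the same recipient paired, Idi1 and Hmgcs1 were the only calls, at 1.33 (limma adjusted p 0.0045) and 1.19 (limma adjusted p 0.0202), beside 7.69% of all genes. The count was 10 without CD8 Treg-treated replicate JL019-2, beside 17.9% of all genes, and 1 without CD8 replicate JL027-2. It was 2 without CD8 replicate JL019-1 or JL027-1 or CD4 replicate JL019-1, and 3 without CD4 replicate JL027-2, beside 6.43% to 7.07% of all genes in these 5 fits. With 1 library left out at a time, Idi1 was called in 8 of 8 cases, Acat2 in 6 of 8, Elovl6 and Fads1 in 3 of 8, and Hmgcs1, Mvd and Lpin1 in 2 of 8. Within each prefix 1 member was called, Idi1 in both. The cell cycle genes summed to 103017 to 133526 in CD8 and 59754 to 67957 in CD4 Treg-treated libraries. The myeloid sum was 18538 to 45699 and 28179 to 97495 in the same libraries, and the erythroid sum 2613 to 19324 and 5519.5 to 62621. Of these genes, 9 of 12 myeloid and all 8 erythroid ones had a lower mean in CD8 cells. The length trend averaged -0.0429 ± 0.0613 (SD, n = 4) in CD8 and -0.0680 ± 0.0600 (SD, n = 4) in CD4 libraries. The part of these differences was not tested.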

How the data were processed

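RNA of the 31 libraries had been converted to cDNA with a SMARTer v4 kit and made into libraries with Nextera XT, per the labels' protocols. The submitters' processing notes name FastQC 0.11.7, kallisto, DESeq2 and the builds GRCm38 and mm10, with no role or order. The authors deposited 1 table with normalised counts for each library (a signal, not whole numbers) and with p-value, log2 fold change and statistic (score) columns that name no groups and were not used. The table gives no raw reads, so the depth per sample is unknown.

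Values were analysed as log2(value + 1) with limma 3.58.1 in R 4.3.3 in 1 model of the 10 group means over all 31 libraries and 16741 genes, with a trended and robust variance and Benjamini-Hochberg adjustment, and a gene was called at an adjusted p below 0.05. It gave 13 comparisons between 2 groups and 2 differences of effects. The code was tested on simulated data. Alternatives were another pseudocount, filter and scaling, fits of the compared groups alone, blocks, removal of each library and, chosen after seeing the data, a length correction and fits within a prefix. No library was a copy of another, the highest r between libraries of a group being 0.977.

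The members and lists were chosen with earlier results of these data known. Full values are given for Srebf1, Srebf2, Insig1 and up to 3 called members a direction with the lowest adjusted p in each comparison, and others where they help. Other pathway genes are named where called, up to 2 a direction, and some of them, though counted, are not reported here by name. T cell receptor data and 1 sample that the labels put in no group are not analysed here.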

Additional observations from a re-analysis of the deposited data

Results flagged for a closer look

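In groups of 4 libraries, 13 of 120 tests found 1 library set apart from the other 3 by Dixon's criterion, which chance alone meets in about 1 of 20 groups. The 13 are not independent, since 8 of them concern 2 libraries. CD4 Treg-treated replicate JL027-1 stood apart, above the others, for Sqle at 1213, Cyp51 at 2582, Acly at 4558 and Fasn at 1637. CD8 allogeneic replicate JL027-1 stood apart for Mvd at 192 and Srebf2 at 1962, both below the others, and for Ebp at 5379 and Sc5d at 2308, both above. Among CD4 allogeneic libraries, Nsdhl was 686 in JL019-2, Fasn 1108 in JL027-1 and Scd1 3.46 in JL019-1. Among CD8 allogeneic libraries, Hsd17b7 was 282 in JL019-1 and Scd1 13.7 in JL019-2.

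The change between syngeneic and allogeneic recipients differed between CD8 and CD4 cells, by the limma test of the difference itself, for Sqle (2.22 on the log2 scale), Fdps (1.29), Msmo1 (1.05) and Fdft1 (0.90). With the recipient as a replicate block Sqle alone was called.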

How the results depend on the processing

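No member called in a comparison changed direction under any alternative. The calls came from the same libraries, so this is not an independent test. With a pseudocount of 0.1, no filter or a mean of at least 10, each count of members called stayed within 1.5 times its value, which is also the bound for every other alternative not named here. Counts over all libraries stand before those that moved. The counts here and in the next paragraph are given without the share of all genes called in the same fit. A count that moved is therefore not a result about the members. CD4 syngeneic against day 0 (4 called) gave 1 with libraries centred on their medians, 0 in a fit of the compared groups alone, 0 within prefix JL019, 0 within JL027 and 0 to 4 with 1 library left out. CD8 syngeneic against day 0 (7) gave 3 with the groups alone, 1 within JL019, 0 within JL027 and 1 to 6 with 1 library left out. CD4 allogeneic against day 0 (7) gave 12 with the groups alone, 2 within JL019, 2 within JL027 and 2 to 7. CD8 allogeneic against day 0 (10) gave 6 within JL019, 5 within JL027 and 7 to 10 with 1 library left out. CD4 allogeneic against syngeneic (6) gave 3 within JL019, 0 within JL027 and 3 to 6, and the same comparison in CD8 cells (7) gave 4 within JL027 and 5 to 7. CD4 Treg-treated against allogeneic (9) gave 0 within each prefix and 0 to 13. Treg after transplantation against day 0 (4) gave 2 within JL019, 1 within JL027 and 2 to 4. Treg against CD4 at day 0 (3) gave 11 with the groups alone, 0 within each prefix and 1 to 2. The cause was not tested in any of these, but fits within a prefix and without a library hold fewer libraries. Where 1 library was left in a group, it was assumed to vary like the other groups.

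The replicate names were used as a block in 3 ways. CD4 and CD8 libraries of the same recipient deviated together in 7 of 11 pairs (r over 0.1, range -0.152 to 0.489), and equal labels in 2 arms in 3 of 12 (-0.212 to 0.212), so that pairing is by the recipient named in the titles only. With the recipient as a replicate block, Treg against CD4 in Treg-treated recipients (7) called 13, CD8 against CD4 in allogeneic recipients (1) 13, CD8 against CD4 in Treg-treated recipients (6) 2 and the difference of the allogeneic effects (4) 1. With the prefix or the replicate label as a block CD8 against CD4 in allogeneic recipients called 2, and other counts stayed within 1.5 times. The same comparison gave 0 with centred libraries, 6 with the groups alone, 0 with the length trend removed, 0 within each prefix and 0 to 1 with 1 library left out. CD8 against CD4 in Treg-treated recipients gave 0 with the groups alone, 1 within each prefix and 1 to 10, Treg against CD4 in Treg-treated recipients 1 within JL027 and 6 to 10, and the difference of the allogeneic effects 1 with centred libraries, 1 with the groups alone, 0 within each prefix and 1 to 5. The depth is unknown, and groups of 2 or 3 libraries limit what could be called.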

Other observations

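Some patterns across the 30 members belong to no single comparison. Elovl6 was called in 8 of the 13 comparisons between 2 groups, 4 in each direction, and Stard4 in 7, 6 higher and 1 lower. Ebp and Sc5d were called in 5 comparisons each and higher in all of them, and Fads2 in 5 and lower in all of them. These comparisons share libraries and are not independent.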
